A study of Mus musculus with 25 samples.

Results

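The genes described here encode the constitutive subunits and dedicated assembly factors of the proteasome in mouse liver. They were chosen by symbol: every gene with values in the deposited expression table whose name is Psma, Psmb, Psmc or Psmd followed by a number, without the interferon-inducible subunits Psmb8, Psmb9 and Psmb10. This gave 36 genes of 24132 with values. Of these, 34 reached at least 1 RPKM (reads scaled to the length of the gene model and to the read total of the library) in at least 5 of 25 libraries and were tested together with all 9372 genes that met this filter. Psma8, an alpha subunit of germ cells, lay between 0.0912 and 0.768 RPKM and reached 1 RPKM in 0 of 25 libraries. Psmb11, a catalytic subunit of the thymus, was listed at 0 in 24 of 25 libraries and at 0.0101 RPKM in the other. These last genes were not tested.

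The study sequenced liver RNA from 25 C57BL/6 mice, 5 per group, after 5 weeks of parabiosis, a surgical joining of animals whose blood then mixes. The O (Yg Het) group held 21-month wild-type mice joined to young mice labelled ManfHet. The O (YgWT) group held 21-month wild-type mice joined to young wild-type mice, and the O-O group held 21-month wild-type mice from old-old pairs. The Yg Het group held the 5-month ManfHet partners of old mice, and the Yg WT group held the 5-month wild-type partners of old mice. Manf encodes a secreted stress-response factor of the endoplasmic reticulum. Every animal was a parabiont, so no value stands for an unjoined mouse, and the Yg WT and Yg Het animals all carried an old partner. The labels give neither the allele nor any restriction of it to a cell type, and they do not say which old animal was joined to which young one.

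The proteasome degrades proteins that carry ubiquitin chains. Its core particle is a barrel of stacked rings: outer alpha rings that gate the entrance, and inner beta rings that hold the proteolytic sites. A regulatory particle caps the core, with a base of ATPases that unfold and thread the substrate, and a lid that removes the ubiquitin chain. Subunit genes are widely expressed and many of them are induced together when proteasome activity drops, through the transcription factor NRF1 (encoded by Nfe2l1), which acts at antioxidant response elements. In liver, the proteasome shares protein turnover with lysosomal breakdown.

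The promoters of 5 members are shown because these genes lead the results below or are the catalytic subunits with a window. Each sequence is the 250 bases before the annotated start on the gene's own strand, from RefSeq on GRCm38.p6 (mm10), and 29 of 36 members had such a window. Capitals mark a match to TGACNNNGC, the core of the antioxidant response element, or to the CCAAT box, which reads ATTGG on the opposite strand. Psmb5 encodes the chymotrypsin-like catalytic subunit (chr14:54617996-54618245, minus strand), Psmb6 the caspase-like catalytic subunit (chr11:70525107-70525356, plus strand) and Psmd9 a regulatory particle chaperone (chr5:123227940-123228189, plus strand). Psmd14 encodes the deubiquitinase of the lid (chr2:61711444-61711693, plus strand), and Psmd11 encodes a lid subunit (chr11:80428365-80428614, plus strand).
Psmb5: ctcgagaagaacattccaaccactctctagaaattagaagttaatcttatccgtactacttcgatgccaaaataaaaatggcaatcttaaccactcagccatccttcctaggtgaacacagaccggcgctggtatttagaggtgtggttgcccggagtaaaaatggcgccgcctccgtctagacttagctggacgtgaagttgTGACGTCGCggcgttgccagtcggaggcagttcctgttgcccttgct
Psmb6: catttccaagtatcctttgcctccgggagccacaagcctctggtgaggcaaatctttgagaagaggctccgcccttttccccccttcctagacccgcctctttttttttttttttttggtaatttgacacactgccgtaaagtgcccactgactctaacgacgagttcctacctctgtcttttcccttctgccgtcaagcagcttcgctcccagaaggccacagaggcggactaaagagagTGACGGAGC
Psmd9: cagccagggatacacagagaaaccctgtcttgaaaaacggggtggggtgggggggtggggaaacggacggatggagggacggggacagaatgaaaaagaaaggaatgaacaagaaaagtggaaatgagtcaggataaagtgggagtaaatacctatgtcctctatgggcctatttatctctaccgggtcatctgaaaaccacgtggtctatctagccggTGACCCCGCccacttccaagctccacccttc
Psmd14: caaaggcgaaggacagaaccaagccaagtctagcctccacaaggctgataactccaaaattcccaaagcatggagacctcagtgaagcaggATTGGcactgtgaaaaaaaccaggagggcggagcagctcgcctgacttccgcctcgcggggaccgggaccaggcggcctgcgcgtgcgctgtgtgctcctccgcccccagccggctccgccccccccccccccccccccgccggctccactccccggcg
Psmd11: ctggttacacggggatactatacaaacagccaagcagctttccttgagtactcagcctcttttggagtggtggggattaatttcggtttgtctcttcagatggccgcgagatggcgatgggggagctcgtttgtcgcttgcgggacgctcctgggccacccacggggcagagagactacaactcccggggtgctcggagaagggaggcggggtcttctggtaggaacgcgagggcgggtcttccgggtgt

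The element core was found 47 bases before the start in Psmb5, 9 bases before it in Psmb6 and 31 bases before it in Psmd9. It was also found in Psmc6, 227 bases before the start, and in Psmd12, 247 bases before it. That is 5 of 29 members, or 17.2%, against 11.5% of 27025 genes with windows of the same length, a gene being counted where any of its windows held a match. CCAAT occurred in 12 of 29 members (41.4%, against 37.5% of all genes) and the GC box GGGCGG in 17 of 29 (58.6%, against 35.4%), each counted on both strands. Psmd14 had a CCAAT match and none to the element core, and Psmd11 had neither.

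The libraries held 21.8 to 27.6 M reads. Manf, the gene that is heterozygous in the ManfHet mice, averaged 4.47 ± 1.11 RPKM in Yg Het livers and 15.3 ± 6.47 RPKM in Yg WT livers (SD, n = 5 each; log2 difference -1.60 ± 0.23 SE, limma adjusted p = 0.00109). Among the old groups Manf averaged 7.12 ± 1.81 RPKM in O (Yg Het), 17.6 ± 2.46 RPKM in O (YgWT) and 8.86 ± 2.53 RPKM in O-O livers, so it also differed between wild-type groups. The level of Manf alone therefore cannot verify the genotype labels. Albumin took 2.61% to 12.2% of a library's reads, and 11.6%, 12.2%, 9.47%, 11% and 5.77% in O (Yg Het) replicates 1 to 5. RPKM divides by the read total, and the median log2 difference over all tested genes was -0.14 for O (Yg Het) against O (YgWT) and -0.14 for O (Yg Het) against O-O livers. Counts of calls are given as deposited and after median-of-ratios scaling, which divides each library by the median ratio of its genes to their mean across libraries (factors 0.873 to 1.096). A few libraries stood apart within their groups for the subunits as a whole after scaling. O (Yg Het) replicate 5 was above its group median for 27 of 34 members and Yg Het replicate 1 for 30 of 34. Yg WT replicate 5 was below its group median for 32 of 34 members and O-O replicate 5 for 27 of 34. Such counts were not made over all tested genes, so they do not tell a deviation of the subunits from one of the whole library.

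All 34 tested members were measured in every library. The structural beta subunit Psmb1 had the highest level, with a mean of 82.0 RPKM over 25 libraries (range 74.5 to 91.1). By role, mean levels per gene ran from 21.7 (Psma1) to 62.3 RPKM (Psma2) in the alpha ring, and from 13.9 (Psmc2) to 49.2 RPKM (Psmc1) among the 6 ATPases of the base. The 8 lid subunits lay between 11.2 (Psmd14) and 23.5 RPKM (Psmd8). The 3 regulatory particle chaperones were lowest, at 4.49 RPKM for Psmd10, 3.9 RPKM for Psmd9 and 3.33 RPKM for Psmd5. Depth was least for Psmd10, with 123 reads in its lowest library, and each of the other tested members had at least 478 reads in every library.

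**Figure D1:**
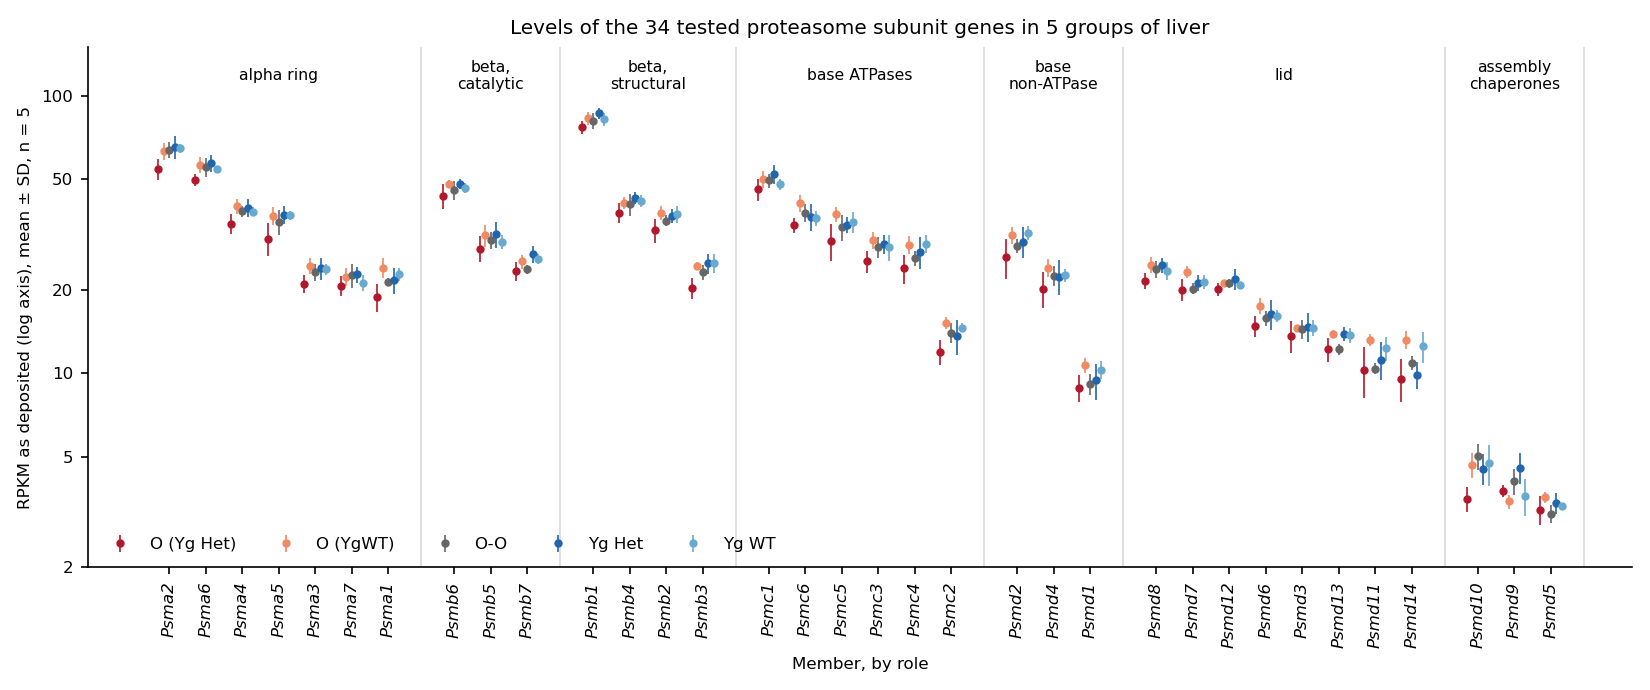
Mean RPKM ± SD (log axis) of each tested subunit gene in the 5 groups, arranged by role in the particle, with 5 libraries per group. Psmb1 sits at the top of the beta ring with a mean of 82.0 RPKM over all libraries, the 3 chaperones lie under 5 RPKM, and the groups of 1 gene lie close together beside the spread between genes.

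The family varied little between groups. The highest group mean of a member was 1.08 to 1.42 times its lowest group mean as deposited (median 1.18), and 1.04 to 1.35 times after scaling (median 1.12). For all tested genes the median of this ratio was 1.26 as deposited and 1.21 after scaling. All tested genes include genes near the filter of 1 RPKM, and no set matched to the members in level was compared. As deposited, 32 of 34 members had their lowest group mean in O (Yg Het) livers, and 17 had their highest in O (YgWT) and 13 in Yg Het livers. After scaling, 23 of 34 members were lowest in O-O livers and 20 were highest in Yg WT livers, so which group was lowest depended on the scaling. These counts were not made over all tested genes, so they do not set the members apart. As deposited, the median of all genes was also lower in O (Yg Het) livers. It differed by -0.14 against O (YgWT), -0.14 against O-O and -0.13 against Yg Het livers. The summed level of the 34 members as deposited was 792 to 969 RPKM in O (Yg Het), 940.5 to 1032.9 RPKM in O (YgWT), 866 to 975 RPKM in O-O, 888 to 1071.5 RPKM in Yg Het and 918 to 1001.5 RPKM in Yg WT livers. After scaling it was 877 to 974 in O (Yg Het), 893 to 976 in O (YgWT) and 827 to 929 in O-O livers. Yg Het livers then lay at 906 to 1030.2 and Yg WT livers at 901 to 1007.8.

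The first comparison, O (Yg Het) against O (YgWT), asks whether the genotype of the young partner made a difference to the old liver. As deposited, 23 of 34 members fell and 0 rose (limma on log2(RPKM + 0.5), adjusted p under 0.05 over 9372 genes), where 29.6% of all tested genes fell and 3.07% rose, 32.7% in all. The median member differed by -0.21 on the log2 scale and the median of all genes by -0.14. With albumin left out of the read total, 7 members fell and 0 rose, where 17.1% of all genes fell and 4.19% rose. After scaling, 2 members passed, where 18.5% of all genes did (8.93% higher, 9.53% lower): Psmd14 fell and the chaperone Psmd9 rose. The scaled median was -0.05 for the members and 0.00 for all genes.

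Among the core subunits, 6 of 7 alpha ring genes and 2 of 4 structural beta genes fell as deposited, and the medians were -0.21 and -0.16 on the log2 scale. Psma1, an alpha ring subunit, averaged 18.8 ± 2.18 RPKM in O (Yg Het) and 24.0 ± 2.00 RPKM in O (YgWT) livers (SD, n = 5 each). Its log2 difference was -0.35 (limma adjusted p = 0.00248) as deposited and -0.18 (limma adjusted p = 0.0579) after scaling. Psma4 and Psma6, also of the alpha ring, were among the 6, as were Psmb2 and Psmb3 among the structural beta subunits. After scaling, the 14 core genes had a median log2 difference of -0.02.

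The catalytic subunits did not pass the test in this comparison. Psmb5, the chymotrypsin-like subunit, was at 29.0, 24.1, 30.1, 26.1 and 31.4 RPKM in O (Yg Het) livers, against 30.7, 33.8, 34.7, 28.5 and 29.2 RPKM in O (YgWT) livers. Psmb6, the caspase-like subunit, was at 46.3, 36.2, 45.3, 42.5 and 47.6 RPKM in O (Yg Het) livers, against 50, 47.4, 48.9, 46.2 and 48.6 RPKM in O (YgWT) livers. Psmb7, the trypsin-like subunit, was at 22.3, 21.2, 24.4, 22.9 and 26.0 RPKM in O (Yg Het) livers, against 23.7, 25.2, 25.2, 24.8 and 27.7 RPKM in O (YgWT) livers. The groups overlapped for each of these genes, and O (Yg Het) replicate 2 was the lowest library for all of them. The log2 differences were -0.16 for Psmb5 (limma adjusted p = 0.139, unadjusted p = 0.0656), -0.15 for Psmb6 (limma adjusted p = 0.0883, unadjusted p = 0.0356) and -0.11 for Psmb7 (limma adjusted p = 0.146, unadjusted p = 0.0705), and voom on recovered reads also called none of them. After scaling the differences were 0.01, 0.02 and 0.05, of the opposite sign.

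The catalytic genes had these levels in the other 3 groups. Psmb5 was at 29.0, 27.2, 32.1, 32.3 and 29.8 RPKM in O-O, 36.3, 34.5, 29.1, 30.5 and 28.6 RPKM in Yg Het and 27.5, 29.7, 30.3, 32.1 and 29.3 RPKM in Yg WT livers. Psmb6 was at 47.3, 43.1, 47.6, 49.9 and 40.8 RPKM in O-O, 50.7, 48.5, 45.8, 49.0 and 46.3 RPKM in Yg Het and 48.3, 44.7, 44.9, 49.2 and 46.2 RPKM in Yg WT livers. Psmb7 was at 24.8, 23.8, 23.5, 23.8 and 22.4 RPKM in O-O, 28.6, 25.7, 27.8, 28.2 and 24.2 RPKM in Yg Het and 27.0, 24.7, 26.1, 26.7 and 24.8 RPKM in Yg WT livers. The ranges of the groups overlapped for Psmb5 and Psmb6, and for Psmb7 the O-O and Yg WT ranges met only between 24.7 and 24.8 RPKM.

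In the regulatory particle, 5 of 6 ATPases, 3 of 3 non-ATPase subunits of the base and 6 of 8 lid subunits fell as deposited, with a median of -0.25 over the 17 genes. The base subunits that fell included Psmc2, an ATPase, with a log2 difference of -0.34 (limma adjusted p = 0.00331) as deposited and -0.18 (limma adjusted p = 0.0857) after scaling, and Psmd4, a ubiquitin receptor, which averaged 20.2 ± 3.01 RPKM in O (Yg Het) and 24.0 ± 1.84 RPKM in O (YgWT) livers (SD, n = 5 each). After scaling, the median of the 17 genes was -0.09 and Psmd14 alone passed.

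Psmd14, on chromosome 2 from 61711694 to 61800376, had the largest fall. Its levels were 8.56, 8.53, 9.59, 8.69 and 12.5 RPKM in O (Yg Het) livers, against 12.1, 13.9, 14.0, 13.8 and 12.1 RPKM in O (YgWT) livers. The groups overlapped only through O (Yg Het) replicate 5, at 12.5 RPKM. The log2 difference was -0.45 ± 0.10 SE (limma adjusted p = 0.00219) as deposited. After scaling, the levels were 9.22, 9.46, 10.2, 9.96 and 12.5 in O (Yg Het) livers, against 11.4, 13.1, 13.1, 14.1 and 11.5 in O (YgWT) livers, with a log2 difference of -0.29 ± 0.09 SE (limma adjusted p = 0.0358). The scaled call held in 3 of 10 fits that left out 1 library each, and the deposited call in 10 of 10.

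Psmd11, a lid subunit that contacts the core particle, followed in size. It was at 10.1, 8.28, 9.35, 9.65 and 14.0 RPKM in O (Yg Het) livers, against 13.1, 12.1, 13.1, 14.1 and 13.4 RPKM in O (YgWT) livers. Again only replicate 5 of O (Yg Het) reached the range of O (YgWT). The log2 difference was -0.37 ± 0.10 SE (limma adjusted p = 0.0114) as deposited and -0.20 ± 0.09 SE (limma adjusted p = 0.126) after scaling, where it did not pass.

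Among the 3 chaperones of the regulatory particle, Psmd10 (gankyrin) fell. It was at 3.40, 3.73, 3.37, 3.10 and 4.03 RPKM in O (Yg Het) livers, against 4.40, 4.82, 5.23, 3.97 and 4.91 RPKM in O (YgWT) livers. The groups overlapped by 1 library each, and the log2 difference was -0.36 ± 0.10 SE (limma adjusted p = 0.0109) as deposited and -0.21 ± 0.09 SE (limma adjusted p = 0.108) after scaling, where it did not pass. Psmd9 was the 1 member of 34 with a positive difference as deposited, at 0.11 on the log2 scale (3.77, 3.53, 3.82, 4.03 and 3.65 RPKM in O (Yg Het) livers, against 3.39, 3.71, 3.5, 3.14 and 3.49 RPKM in O (YgWT) livers, with overlap). After scaling, Psmd9 was at 4.06, 3.91, 4.08, 4.62 and 3.66 in O (Yg Het) livers, against 3.21, 3.5, 3.29, 3.21 and 3.32 in O (YgWT) livers. These ranges did not overlap, and the log2 difference was 0.26 ± 0.08 SE (limma adjusted p = 0.0289). This scaled call held in 6 of 10 fits that left out 1 library each (limma adjusted p 0.0191 to 0.091).

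**Figure D2:**
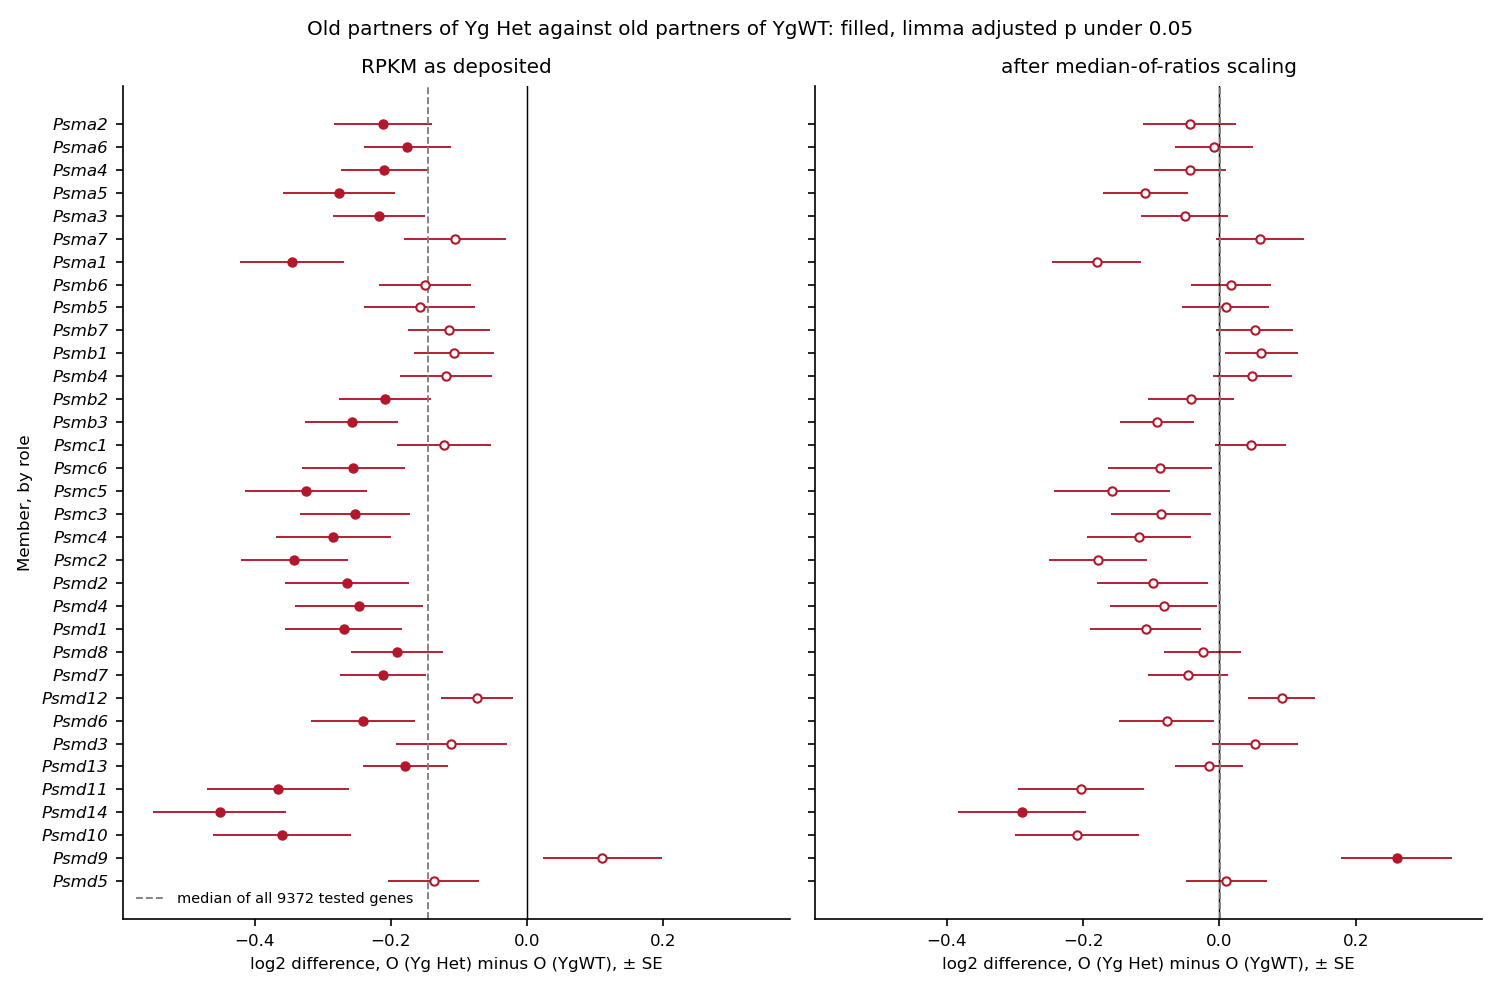
Log2 difference of O (Yg Het) minus O (YgWT) for each of the 34 tested members by role, with standard errors from limma, as deposited and after median-of-ratios scaling. As deposited, 23 members fell, with Psmd14 lowest at -0.45, and after scaling most members moved toward 0, with Psmd14 at -0.29 and Psmd9 at 0.26.

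Markers of other liver cell types and clock genes moved with this comparison, and in bulk liver fewer cells of a type and less RNA per cell cannot be told apart. Of 11 tested Kupffer cell and macrophage markers, 9 fell in O (Yg Het) against O (YgWT) livers on both scales, with a summed level (over every gene of a list with values, tested or not) of 70.8 to 211 RPKM in O (Yg Het) and 229 to 426 RPKM in O (YgWT) livers. Of 7 stellate cell and fibroblast markers, 6 fell as deposited and 5 after scaling (sums 34.1 to 81.2 RPKM in O (Yg Het) and 88.3 to 134 RPKM in O (YgWT) livers), and of 8 sinusoidal endothelial markers, 7 fell as deposited and 4 after scaling (sums 24.0 to 55.9 RPKM in O (Yg Het) and 57.8 to 75.1 RPKM in O (YgWT) livers). The endothelial sums overlapped after scaling, at 27.5 to 59.7 in O (Yg Het) and 54.6 to 71.6 in O (YgWT) livers. Of 10 hepatocyte markers, 4 rose as deposited and 5 after scaling, albumin among them (log2 difference 1.09). Of 12 tested clock genes, 8 rose and 2 fell on both scales, with sums of 139.7 to 166 RPKM in O (Yg Het) and 60.9 to 113 RPKM in O (YgWT) livers. Dbp, an output gene of the clock, rose by 2.11 and Arntl, its activator, fell by 1.73 on the log2 scale. No marker in these lists was at 0 throughout, the hour of collection is not given in the sources used here, and the part of cell makeup and of clock phase in the subunit values was not tested.

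Leaving out 1 library at a time gave 14 to 24 members called as deposited, with 14 without O (Yg Het) replicate 4, 15 without O (Yg Het) replicate 2 and 15 without O (YgWT) replicate 2. It gave 0 to 4 after scaling, with 4 without O (Yg Het) replicate 5 and 0 without O (Yg Het) replicate 3, O (Yg Het) replicate 4 or O (YgWT) replicate 3. The scaled count was 1 without O (Yg Het) replicate 1 or 2 or without O (YgWT) replicate 1, 2 or 4. As deposited, Psma1, Psma4, Psmb3, Psmc2, Psmc4, Psmc5, Psmc6, Psmd7, Psmd10, Psmd11 and Psmd14 were called in all 10 of these fits.

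The comparison of O (Yg Het) with O-O livers sets a young ManfHet partner beside an old partner. As deposited, 3 of 34 members fell and 0 rose, where 22.7% of all genes fell and 0.907% rose (23.6% in all), and the median was -0.12 for the members and -0.14 for all genes. After scaling, Psmd13 rose and Psmd10 fell, where 3.53% of all genes rose and 6.44% fell (9.98% in all), and the medians were 0.04 for the members and 0.01 for all genes.

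Psmd10 passed on both scales. It was at 3.40, 3.73, 3.37, 3.10 and 4.03 RPKM in O (Yg Het) livers, against 4.94, 4.49, 5.17, 5.89 and 4.59 RPKM in O-O livers, and the groups did not overlap. The log2 difference was -0.45 ± 0.10 SE (limma adjusted p = 0.00401) as deposited and -0.30 ± 0.09 SE (limma adjusted p = 0.0361) after scaling. The deposited call held in each of 10 fits without 1 library and the scaled call in 4 of 10 (limma adjusted p 0.0329 to 0.111).

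Psma2, of the alpha ring, was at 52.8, 56.0, 52.0, 49.8 and 62.3 RPKM in O (Yg Het) livers, against 64.2, 67.3, 61.5, 68.4 and 57.8 RPKM in O-O livers (log2 difference -0.23 ± 0.07 SE, limma adjusted p = 0.0261 as deposited; -0.06, limma adjusted p = 0.651 after scaling). Psmc2, of the base, was at 11.9, 11.1, 10.9, 11.7 and 14.0 RPKM in O (Yg Het) livers, against 13.8, 13.7, 15.7, 14.1 and 12.6 RPKM in O-O livers (log2 difference -0.22 ± 0.08 SE, limma adjusted p = 0.0439 as deposited; -0.06, limma adjusted p = 0.666 after scaling). For both genes the groups overlapped through O (Yg Het) replicate 5, which was the highest of its group. Psmd13, a lid subunit, had 12.4, 12.2, 13.7, 13.4 and 14.2 in O (Yg Het) livers, against 11.4, 11.8, 12.5, 11.2 and 11.6 in O-O livers after scaling, with the ranges overlapping slightly (log2 difference 0.16 ± 0.05 SE, limma adjusted p = 0.0430). As deposited Psmd13 did not differ, with a log2 difference of -0.0044 (limma adjusted p = 0.964). Its scaled call held in 3 of 10 fits without 1 library (limma adjusted p 0.0302 to 0.12). Without O (Yg Het) replicate 5 the count of members called as deposited was 14, without O-O replicate 5 it was 5, and it was 1 without any of O (Yg Het) replicates 1, 3 and 4 and O-O replicates 2 and 4. After scaling it was 0 without O (Yg Het) replicate 3 or 4 or O-O replicate 1 or 4, and 1 without O (Yg Het) replicate 1 or 5 or O-O replicate 2 or 5. The Kupffer cell markers moved with this comparison too: 9 of 11 fell on both scales (sums 70.8 to 211 RPKM in O (Yg Het) and 242 to 671 RPKM in O-O livers), as did 6 of 7 stellate and 6 of 8 endothelial markers as deposited, and their part in the result was not tested.

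O (YgWT) against O-O livers sets a young wild-type partner beside an old one. By limma, 0 of 34 members passed as deposited or after scaling, where 1.17% of all genes did as deposited (0.747% higher, 0.427% lower) and 1.87% after scaling (1.13% higher, 0.736% lower). At an unadjusted p under 0.05, 7 members were higher and 1 lower as deposited, 8 were higher and 1 lower after scaling, where 16% of all genes passed that level as deposited and 17.8% after scaling, and voom called 0. Without O-O replicate 3, 1 member passed after scaling. The differences were positive for 30 of 34 members on either scale, including all 17 regulatory particle genes, with a median of 0.08 for the members against -0.01 for all genes.

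The member with the lowest p was Psmd11, on chromosome 11 from 80428615 to 80473248. It was at 13.1, 12.1, 13.1, 14.1 and 13.4 RPKM in O (YgWT) livers, against 10, 10.6, 10.3, 11.1 and 10 RPKM in O-O livers. The ranges did not overlap, but the log2 difference of 0.32 did not pass (limma adjusted p = 0.111 as deposited and 0.0644 after scaling). Psmd14 likewise had 12.1 to 14.0 RPKM in O (YgWT) livers, against 10.5, 11.4, 11, 11.3 and 9.98 RPKM in O-O livers, without overlap. Clock genes moved in this comparison as well, with 2 of 12 higher and 5 lower on both scales, and their part was not tested.

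Yg Het against Yg WT livers compares the young partners by their own genotype. As deposited, Psmd9 rose and 0 of 34 members fell, where 3.72% of all genes rose and 1.41% fell (5.13% in all). Psmd14 missed the threshold, with a log2 difference of -0.32 (limma adjusted p = 0.0524). After scaling, Psmd14 fell and 0 members rose, where 2.50% of all genes fell and 2.29% rose (4.79% in all). The medians were 0.01 as deposited and -0.05 after scaling for the members, against 0.05 and 0.00 for all genes.

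Psmd9 was at 3.74, 5.06, 5.15, 4.38 and 4.52 RPKM in Yg Het livers, against 3.58, 3.10, 3.08, 4.16 and 4.21 RPKM in Yg WT livers. The groups overlapped, with replicate 1 the lowest of Yg Het. The log2 difference was 0.30 ± 0.09 SE (limma adjusted p = 0.0464) as deposited and 0.25 (limma adjusted p = 0.0810) after scaling. As deposited the call held in 4 of 10 fits without 1 library, and 0 members passed without Yg Het replicate 2, 3 or 4 or Yg WT replicate 1, 2 or 3, while 2 passed without Yg Het replicate 1 or Yg WT replicate 5.

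Psmd14 was at 11.8, 9.62, 9.60, 8.96 and 9.44 RPKM in Yg Het livers, against 11.8, 13.5, 13.2, 14.1 and 10.1 RPKM in Yg WT livers. Replicate 1 stood above the rest of Yg Het and replicate 5 below the rest of Yg WT, and through them the groups overlapped. After scaling, the log2 difference was -0.38 ± 0.09 SE (limma adjusted p = 0.0231), called in 4 of 10 fits without 1 library. The scaled count of members was 0 without Yg Het replicate 2, 3 or 4 or Yg WT replicate 2, 3 or 4, 2 without Yg WT replicate 5 and 3 without Yg Het replicate 1. The clock lists moved here too, with 7 of 12 genes higher and 2 lower on both scales (sums 110.1 to 167 RPKM in Yg Het and 61.7 to 119 RPKM in Yg WT livers), and their part was not tested.

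**Figure D3:**
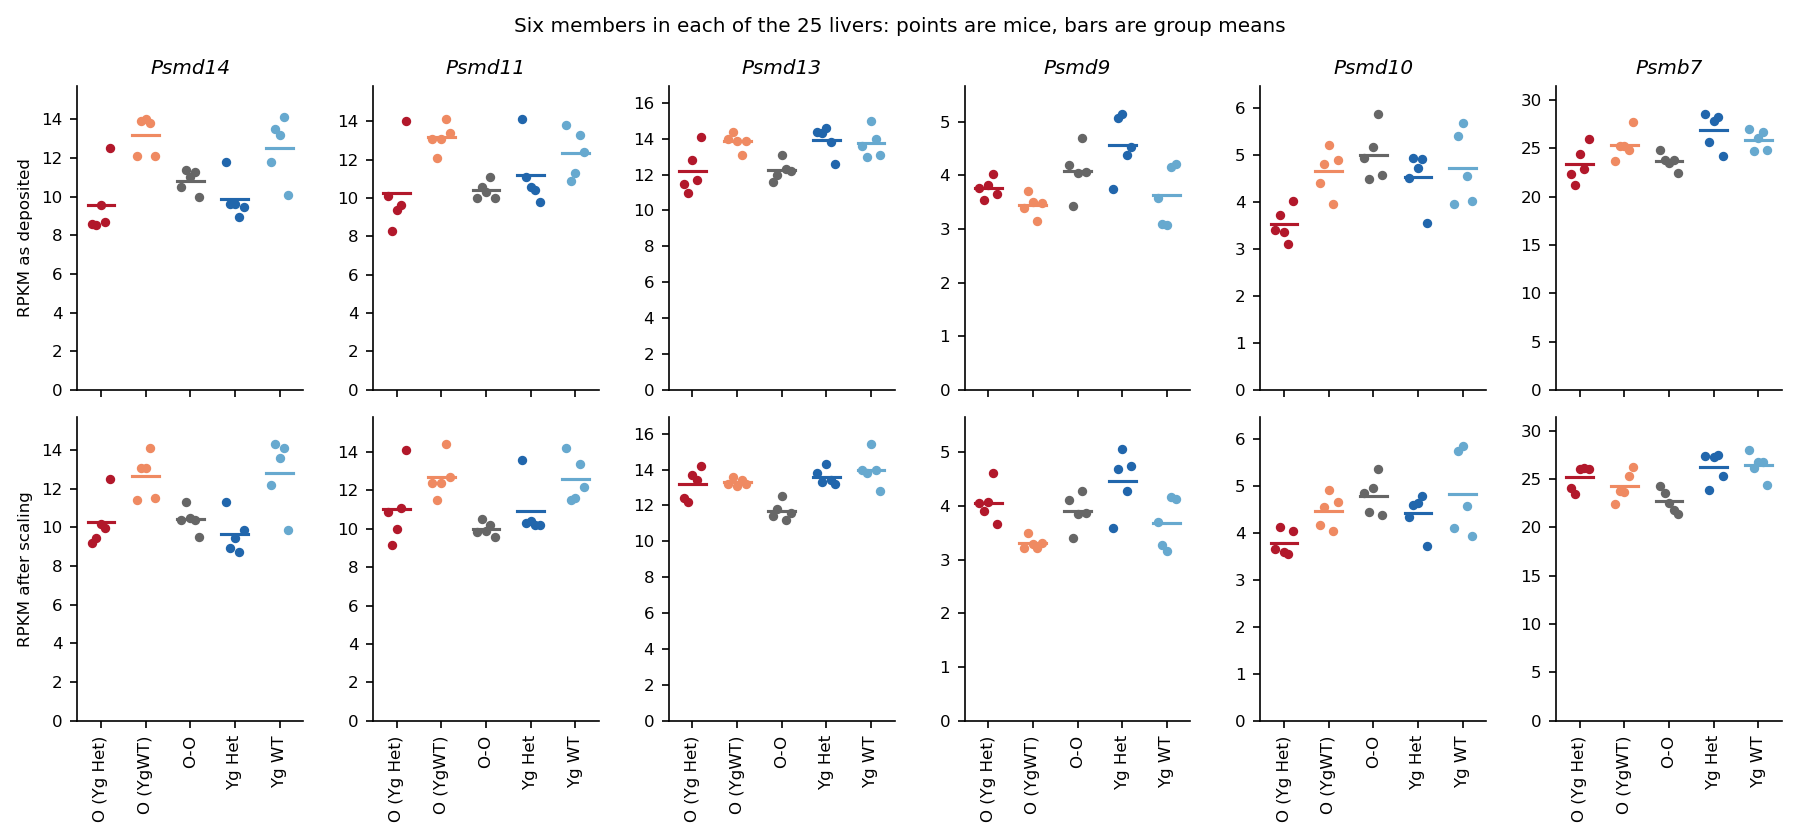
RPKM of 6 members in each of the 25 libraries by group, as deposited (upper row) and after scaling (lower row), with the group mean as a bar. Psmd14 lies at 8.53 to 9.59 RPKM in 4 of 5 O (Yg Het) livers and at 12.1 to 14.0 RPKM in all 5 O (YgWT) livers as deposited.

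A ratio within a library does not depend on the scaling. The mean log2 level of the 17 regulatory particle genes minus that of the 14 core genes was -0.81 ± 0.05 in O (Yg Het), -0.75 ± 0.04 in O (YgWT), -0.82 ± 0.07 in O-O, -0.86 ± 0.06 in Yg Het and -0.79 ± 0.02 in Yg WT livers (SD, n = 5 each). Psmd14 minus the core mean was -1.76 ± 0.14 in O (Yg Het), -1.48 ± 0.10 in O (YgWT), -1.70 ± 0.08 in O-O, -1.91 ± 0.10 in Yg Het and -1.54 ± 0.16 in Yg WT livers. The deubiquitinase was thus lowest relative to the core in Yg Het and highest in O (YgWT) livers, and no test was made of these ratios. O (Yg Het) replicate 5, at -1.53, and Yg WT replicate 5, at -1.80, stood apart from the rest of their groups.

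**Figure D4:**
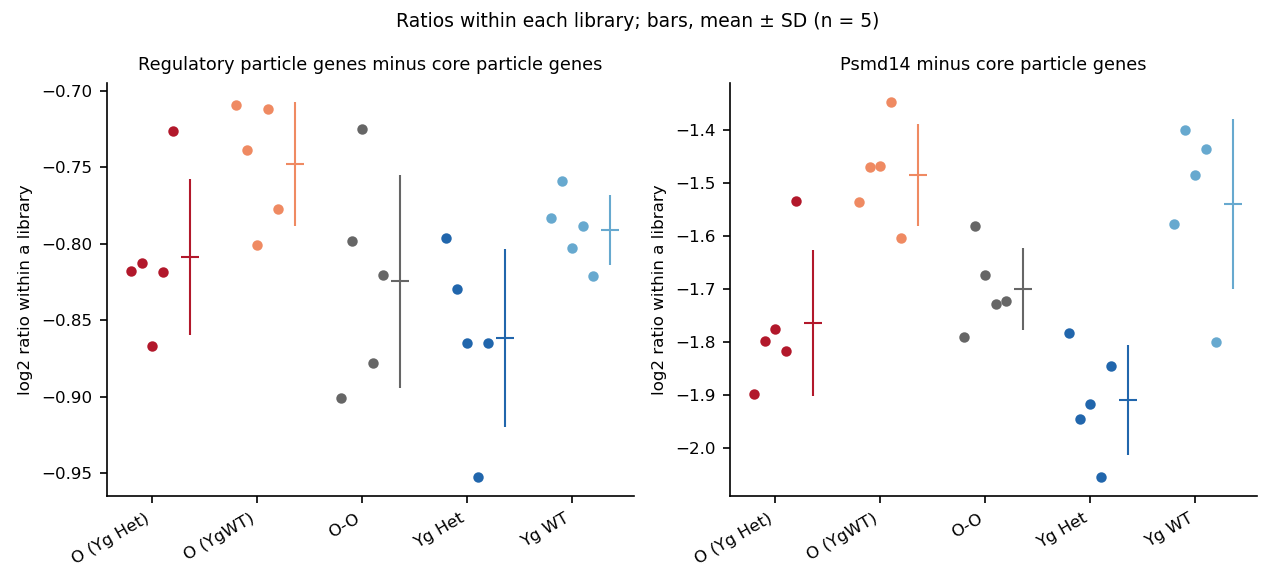
Differences of log2 level within each library: the mean of the 17 regulatory particle genes minus the mean of the 14 core genes, and Psmd14 minus the core mean, for 5 libraries per group with the group mean ± SD. Psmd14 averages -1.48 in O (YgWT) and -1.54 in Yg WT livers and lies lower in the other groups.

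Age was compared in 3 ways. O-O against Yg WT livers sets old mice with old partners beside young mice with old partners. As deposited 0 of 34 members passed by limma, where 10.9% of all genes did (9.11% higher, 1.74% lower), 3 were lower and 0 higher at an unadjusted p under 0.05 (28.7% of all genes passed that level in either direction), and voom called 0. The median of all genes was 0.08 higher in O-O livers as deposited. After scaling, 5 of 34 members fell and 0 rose, where 4.14% of all genes fell and 4.09% rose (8.23% in all), and 32 of 34 differences were negative, with a median of -0.12 against 0.00 for all genes.

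The members that fell were a catalytic and a structural beta subunit, an ATPase of the base and a pair of lid subunits. Psmd13 was at 11.6, 12, 13.1, 12.3 and 12.2 RPKM in O-O livers, against 13.6, 13.0, 15.0, 14.0 and 13.1 RPKM in Yg WT livers as deposited, with overlap by 1 O-O library. It was at 11.4, 11.8, 12.5, 11.2 and 11.6 in O-O livers, against 14.0, 13.8, 15.4, 14.0 and 12.8 in Yg WT livers after scaling, without overlap (log2 difference -0.25 ± 0.05 SE, limma adjusted p = 0.00603). Psmb7 was at 24.3, 23.6, 22.5, 21.8 and 21.4 in O-O livers, against 28.0, 26.2, 26.8, 26.8 and 24.4 in Yg WT livers after scaling, and the ranges did not overlap, with 24.3 the highest in O-O and 24.4 the lowest in Yg WT (log2 difference -0.22 ± 0.06 SE, limma adjusted p = 0.0225). Psmb3, a structural beta subunit, differed by -0.20 ± 0.05 SE (limma adjusted p = 0.0250), Psmd11 by -0.31 ± 0.09 SE (limma adjusted p = 0.0396) and the ATPase Psmc4 by -0.26 ± 0.08 SE (limma adjusted p = 0.0426). The Psmd13 call held in each of 10 fits without 1 library, that of Psmb7 in 6, Psmb3 in 5, Psmc4 in 4 and Psmd11 in 3. The count of members called after scaling ran from 1, without Yg WT replicate 3 or O-O replicate 5, to 9, without Yg WT replicate 5, and it was 2 without O-O replicate 1, O-O replicate 4 or Yg WT replicate 4 and 3 without Yg WT replicate 1 or 2. Stellate cell and fibroblast markers were higher in O-O livers in 5 of 7 tested as deposited and 3 of 7 after scaling, and their sums did not overlap on either scale (94.5 to 119.7 RPKM in O-O and 51.1 to 82 RPKM in Yg WT livers as deposited). B cell markers were higher in O-O livers in 2 of 2 tested on both scales, clock genes in 7 of 12 as deposited and 5 of 12 after scaling with 2 lower, and their part was not tested.

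O (YgWT) against Yg WT livers sets both partners of a wild-type pair beside each other. By limma, 0 of 34 members passed as deposited or after scaling, where 0.117% of all genes did as deposited, all higher, and 0.0534% after scaling (0.0427% higher, 0.0107% lower). There was 1 member higher as deposited and 2 were lower after scaling at an unadjusted p under 0.05, which 12.7% of all genes passed as deposited and 8.63% after scaling, and voom called 0. Psmc6, an ATPase of the base, had the lowest p. It was at 37.0, 41.2, 44.6, 39.1 and 42.9 RPKM in O (YgWT) livers, against 37.9, 36.8, 36.7, 37.6 and 32.1 RPKM in Yg WT livers, with overlap (log2 difference 0.17, limma adjusted p = 0.344).

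O (Yg Het) against Yg Het livers sets both partners of a heterozygous pair beside each other. As deposited 3 of 34 members fell and 0 rose, where 4.64% of all genes fell and 0.907% rose (5.55% in all), and all 34 differences were negative, with a median of -0.18 against -0.13 for all genes. After scaling 0 of 34 passed by limma, where 1.08% of all genes did (0.896% higher, 0.181% lower), with 3 lower at an unadjusted p under 0.05, which 12.9% of all genes passed. The count as deposited was 18 without O (Yg Het) replicate 5, 13 without Yg Het replicate 5, 1 without Yg Het replicate 3, O (Yg Het) replicate 1 or O (Yg Het) replicate 3, and 0 without any of the other libraries compared. Of 11 Kupffer cell and macrophage markers, Clec4f fell as deposited and 0 passed after scaling. Their sums did not overlap as deposited (70.8 to 211 RPKM in O (Yg Het) and 216 to 311 RPKM in Yg Het livers). After scaling the sums overlapped, at 81.2 to 228 in O (Yg Het) and 212 to 309 in Yg Het livers. Of 10 hepatocyte markers, albumin rose on both scales, and the hepatocyte sum averaged 69351 ± 13013 RPKM in O (Yg Het) and 42830 ± 7724 RPKM in Yg Het livers (SD, n = 5 each). Most of this difference was albumin, at 42783 ± 11037 RPKM in O (Yg Het) and 18547 ± 7068 RPKM in Yg Het livers. The part of these markers in the subunit values was not tested.

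Psmb3 was at 20.2, 18.1, 21.3, 19.4 and 22.6 RPKM in O (Yg Het) livers, against 28.0, 25.9, 23.8, 24.3 and 22.7 RPKM in Yg Het livers, with no overlap (log2 difference -0.29 ± 0.07 SE, limma adjusted p = 0.0244 as deposited; -0.15, limma adjusted p = 0.202 after scaling). Psma5, of the alpha ring, was at 28.9, 29.3, 31.2, 26.4 and 37.3 RPKM in O (Yg Het) livers, against 39.1, 39.1, 38.3, 37.7 and 32.3 RPKM in Yg Het livers (log2 difference -0.29 ± 0.08 SE, limma adjusted p = 0.0435 as deposited; -0.15, limma adjusted p = 0.303 after scaling). Psma2 was at 52.8, 56.0, 52.0, 49.8 and 62.3 RPKM in O (Yg Het) livers, against 76.2, 61.4, 64.7, 62.6 and 61.5 RPKM in Yg Het livers (log2 difference -0.26 ± 0.07 SE, limma adjusted p = 0.0421 as deposited; -0.12, limma adjusted p = 0.474 after scaling). For Psma5 and Psma2 the groups overlapped through O (Yg Het) replicate 5.

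Whether the old-minus-young difference depended on the genotype of the young partner was tested as an interaction, O (Yg Het) minus Yg Het minus the difference of O (YgWT) and Yg WT. By limma 0 of 34 members passed on either scale, where 0.0107% of all genes did as deposited and 0% after scaling, and voom called 0. At an unadjusted p under 0.05, 20 of 34 members were lower as deposited and 0 after scaling, where 31.3% and 8.44% of all genes passed that level in either direction. As deposited, 4 members passed without O (Yg Het) replicate 5 and 1 without Yg Het replicate 5 or O (YgWT) replicate 4. All 34 interaction terms were negative as deposited, with a median of -0.22 against -0.21 for all genes, and after scaling the median was 0.01 with 18 positive and 16 negative.

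**Figure D5:**
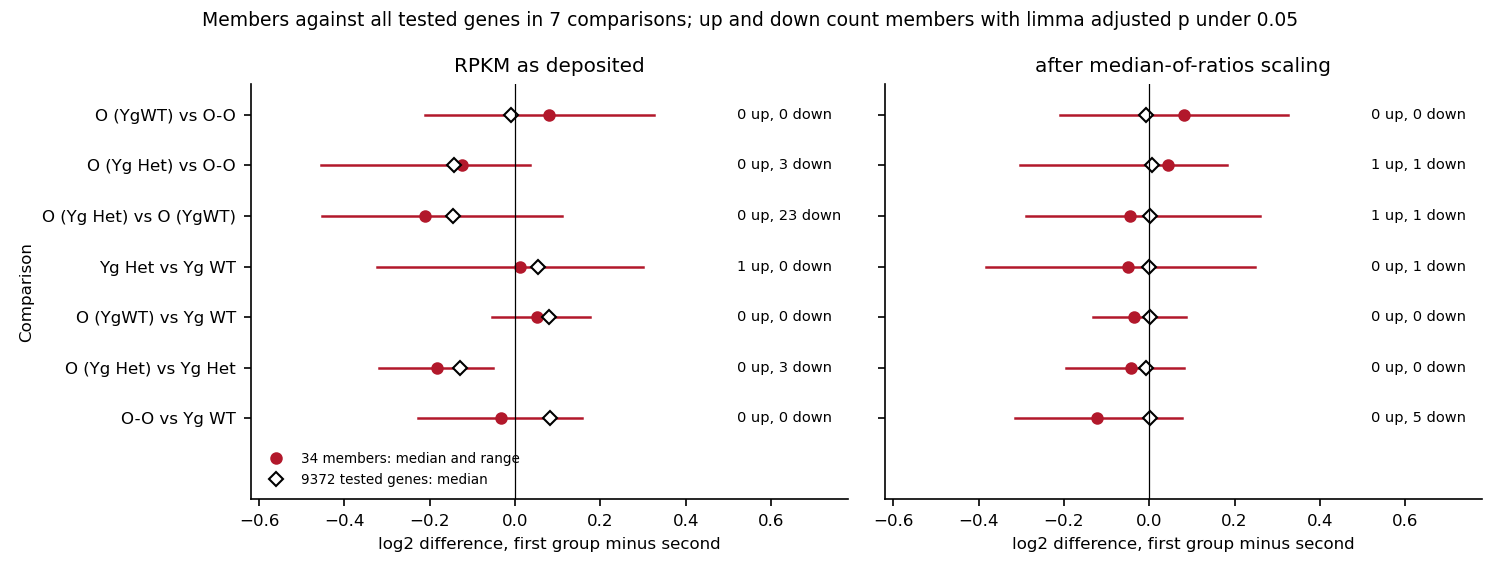
Median log2 difference of the 34 members and of all 9372 tested genes in each comparison, as deposited and after scaling. As deposited the medians of the members and of all genes have opposite signs for O (YgWT) against O-O (0.08 and -0.01) and for O-O against Yg WT (-0.03 and 0.08) and the same sign in the other 5 comparisons, and after scaling the largest distance from 0 is -0.12, for O-O against Yg WT.

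Genes around the proteasome were read in the same fits. In O (Yg Het) against O (YgWT) livers, where 29.6% of all genes fell as deposited and 9.53% after scaling, 3 of 5 core assembly genes fell as deposited: Pomp, the maturation factor, by 0.30, Psmg2 by 0.29 and Psmg4 by 0.36 on the log2 scale. After scaling 0 of 5 passed by limma. Of 13 proteasome-bound receptors and deubiquitinases, 5 fell as deposited, among them the shuttle factors Ubqln1 (log2 difference -0.44, limma adjusted p = 0.00150) and Rad23b (-0.31), and the deubiquitinase Usp14 (-0.22), and Ubqln1 fell after scaling as well (-0.27, limma adjusted p = 0.0259). Of 5 genes of the NRF1 route, Nfe2l1 fell by 0.30 (limma adjusted p = 0.0286) as deposited, and Ddi2, the protease that activates NRF1, fell on both scales (-0.39, limma adjusted p = 0.000532 as deposited; -0.23, limma adjusted p = 0.0179 after scaling).

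Among alternative caps and subunits, 2 of 5 immunoproteasome and PA28 genes fell in O (Yg Het) against O (YgWT) livers as deposited (Psmb8 by 0.54 and the activator Psme2 by 0.26 on the log2 scale), and 0 after scaling. Of 3 other activators and inhibitors, Psme3 fell by 0.24 as deposited and 0 passed after scaling. In this comparison 29.6% of all genes fell as deposited and 9.53% after scaling. In O (Yg Het) against O-O livers, 3 of 5 of the immunoproteasome and PA28 genes fell as deposited (Psme2, Psmb8 by 0.61 and Psmb9 by 0.78) and 0 after scaling, where 22.7% and 6.44% of all genes fell. In O-O against Yg WT livers, Psme1 rose by 0.32 and Psmb10 by 0.52 as deposited and 0 of 5 passed after scaling, while Psme4, a nuclear activator, fell by 0.29 after scaling (limma adjusted p = 0.0126). Of all genes, 9.11% rose there as deposited, and 4.09% rose and 4.14% fell after scaling. Nfe2l2, a relative of NRF1, was higher in O-O than in Yg WT livers on both scales, by 0.47 as deposited and 0.38 after scaling (limma adjusted p = 0.0156 and 0.0424).

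Uba1, the main ubiquitin-activating enzyme, fell by 0.24 on the log2 scale in O (Yg Het) against O (YgWT) livers as deposited (limma adjusted p = 0.0295) and had a difference of -0.07 after scaling (limma adjusted p = 0.551). Of 6 cofactors of VCP, the ATPase that extracts ubiquitylated proteins, 4 fell in O (Yg Het) against O (YgWT) livers as deposited (Ubxn4 by 0.45, Nsfl1c by 0.29, Faf2 by 0.26 and Ufd1 by 0.22), where 29.6% of all genes fell. After scaling Ubxn6 rose by 0.26, where 8.93% of all genes rose.

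The measurement itself limits some of these values. Annotation holds 4 pseudogenes named after members, and how reads that match several places were counted is not given in the sources used here, so reads from such copies could be split or lost. The annotated Psmd9 gene runs from 123169413 to 123250131 on chromosome 5 and so begins upstream of the promoter window shown for it. Which of its transcripts gave the Psmd9 reads was not tested. Each group is 5 animals of 1 strain from 1 experiment, and the spread between libraries covers only these animals.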

How the data were processed

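RNA was extracted with Trizol from flash frozen liver and libraries were made with the TruSeq Stranded mRNA LT Kit, per the labels' protocols. STAR 2.4.2a, HTSeq and the mm10 build are named in the submitters' processing notes. The deposited values are RPKM per gene, 1 column per animal, and the strand setting, filters and reads behind the total are not given in the sources used here. Whole reads were recovered from the RPKM steps (tolerance 0.02 reads) for 17837 of 17838 genes with a value, 100% of them after rounding, and for all 9372 tested genes. Library totals came to 21.8 to 27.6 M reads and reads on genes to 14.5 to 18.6 M.

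Values were tested with limma 3.58.1 (R 4.3.3) on log2(RPKM + 0.5), with a mean-variance trend, in 1 model of 5 groups with 20 residual degrees of freedom and Benjamini-Hochberg adjustment over the 9372 genes that reached 1 RPKM in 5 or more libraries. The constant of 0.5 understates changes of low genes. Median-of-ratios scaling was fitted the same way. The fit was tested on simulated data. No column was left out, and no pair of columns held identical values. The table had 60354 rows, of which 36222 held no value, 1 held an infinite value and 24 had a symbol turned into a date.

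Values in every library are given for the catalytic subunits and, per comparison, for the 3 members with the largest passing difference in each direction as deposited, or the member with the lowest p where none passed; members named only for a scaled call or as examples were chosen after their values were seen. Members, lists and tests were chosen with earlier results of these data known. The list of ubiquitin genes and activating enzymes is not reported here as a whole. Gene positions are from GENCODE vM21 (mm10), promoters from RefSeq, and Python 3.11.15 was used for the descriptions. Alternatives were other constants, filters and scalings, a total without albumin, only the groups compared, library weights, the replicate number as a block, voom on the recovered reads and leaving out each library; leaving out libraries after scaling was added after seeing the data.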

Additional observations from a re-analysis of the deposited data

Results flagged for a closer look

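A library was singled out where its gap to the nearest of its 5 group members exceeded 0.71 of the group's whole range. This happened in 10 of 170 groups of tested members, and chance alone flags about 1 in 20 groups, or 5%. O (Yg Het) replicate 5 was high for 4 members: 12.5 RPKM for Psmd14 (others 8.53 to 9.59), 34 RPKM for Psmd2, a scaffold subunit of the base (others 23.9 to 25), 25.5 RPKM for the ubiquitin receptor Psmd4 (others 17.8 to 19.5) and 84.0 RPKM for Psmb1 (others 74.5 to 77.2). O (Yg Het) replicate 2 was low for Psma7, of the alpha ring, at 17.7 RPKM (others 21.1 to 21.7).

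Yg Het replicate 1 was high for Psma2 at 76.2 RPKM (others 61.4 to 64.7) and for Psmd14 at 11.8 RPKM (others 8.96 to 9.62). Yg Het replicate 5 was low for Psma5 at 32.3 RPKM (others 37.7 to 39.1). Yg WT replicate 5 was low for Psmc6 at 32.1 RPKM (others 36.7 to 37.9), and Yg WT replicate 1 was low for the lid subunit Psmd8 at 20.4 RPKM (others 23.5 to 24.5). No member moved in opposite directions without overlap between the pair types (0 of 34). The same count was not made over all tested genes, so it is not a result about the members.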

How the results depend on the processing

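The number of members called for O (Yg Het) against O (YgWT), 23 as deposited, was 2 with median-of-ratios scaling, 3 with upper-quartile scaling, 7 with albumin left out of the read total and 13 with only the groups compared. For O (Yg Het) against O-O (3 as deposited) it was 1 with upper-quartile scaling, 1 without albumin in the total, 1 with only the groups compared and 5 with library weights. For O (YgWT) against O-O (0) it was 1 with only the groups compared and 1 with library weights. For Yg Het against Yg WT (1) it was 0 with all genes tested, 0 with only the groups compared and 2 with library weights. For O (Yg Het) against Yg Het (3) it was 1 with all genes tested, 0 with median-of-ratios, upper-quartile or albumin-free totals and with only the groups compared, and 16 with library weights. For O-O against Yg WT (0) it was 5 with median-of-ratios and 4 with upper-quartile scaling, and for the difference of old minus young between pair types (0) it was 11 with library weights. Voom, both other constants and the higher filter kept each of these counts within 1.5 times. Of all tested genes, O (Yg Het) against O (YgWT) called 32.7% as deposited, 18.5% with median-of-ratios scaling and 21.3% without albumin in the total. Without albumin the share was 14.3% for O (Yg Het) against O-O and 0.982% for O (Yg Het) against Yg Het. For the remaining settings and the fits without 1 library, shares of all genes are not given here. Those counts show dependence on the processing, not a difference from all genes. With the filter at 5 RPKM Psmd9 was not tested, and the 1 member then called for Yg Het against Yg WT was a lower one, as it also was with median-of-ratios, upper-quartile or albumin-free totals, while the 1 called as deposited, Psmd9, was higher.

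The labels do not say that a shared replicate number marks a pair, and in 0 of 7 comparisons did every same-numbered pair have correlated deviations over 0.1 (11 of 35 pairs did, range -0.527 to 0.275, and 8 were under -0.1). Only O (YgWT) with Yg WT and O (Yg Het) with Yg Het could hold partners, and the pooled figures take in comparisons that could not. The partner groups O (YgWT) and Yg WT came nearest, with 0.077, 0.234, 0.263, 0.163 and 0.275 and 6 of 10 libraries correlating best with their own number, and 0 members were called there with or without the block. O (Yg Het) and Yg Het gave 0.232, -0.125, 0.197, -0.094 and 0.044, with 2 of 10 libraries correlating best with their own number. With the replicate number as a block, 0 members were called for Yg Het against Yg WT, 1 for O (Yg Het) against Yg Het and, with scaling as well, 1 for O (Yg Het) against O (YgWT), 0 for O (Yg Het) against Yg Het and 4 for O-O against Yg WT. The other counts with the block were within 1.5 times.

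Leaving out 1 library at a time gave, as deposited, 1 to 14 for O (Yg Het) against O-O, 14 to 24 for O (Yg Het) against O (YgWT), 0 to 2 for Yg Het against Yg WT, 0 to 18 for O (Yg Het) against Yg Het and 0 to 4 for the difference between pair types, and 0 for the other comparisons. After scaling, an alternative chosen after seeing the data, it gave 0 to 1 for O (YgWT) against O-O, 0 to 3 for O (Yg Het) against O-O, 0 to 4 for O (Yg Het) against O (YgWT), 0 to 3 for Yg Het against Yg WT and 1 to 9 for O-O against Yg WT.

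Among the single genes, the catalytic subunits changed sign for O (Yg Het) against O (YgWT) with median-of-ratios scaling, with or without the block: Psmb5 to 0.0090, Psmb6 to 0.0174 and Psmb7 to 0.0516 (0.0195 with upper-quartile scaling). For O-O against Yg WT, Psmb5 changed sign to -0.0778 with median-of-ratios scaling with or without the block, -0.0538 with upper-quartile scaling and -0.0266 with library weights, and without 1 library at a time it lay between -0.0161 and 0.0465, while Psmb6 lay between -0.0635 and 0.0083. The cause of these changes was not tested. Depth limits Psmd10 most, at 123 reads in its lowest library.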

Other observations

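Other protein-folding genes were read beside the proteasome in O (Yg Het) against O (YgWT) livers. Of 13 tested cytosolic heat shock genes, 9 fell as deposited and 5 after scaling (limma, adjusted p under 0.05 over all tested genes), where 29.6% of all genes fell as deposited and 9.53% after scaling. Hsp90aa1, the inducible cytosolic HSP90, fell by 1.21 as deposited and by 1.05 after scaling on the log2 scale, the small heat shock gene Hspb1 by 0.97 and 0.82, Hsph1 by 0.94 and 0.79, and the cochaperone Bag3 by 0.60 and 0.44. Of 7 tested subunits of the CCT chaperonin, which folds actin and tubulin, 4 fell as deposited and Cct3 fell after scaling as well, by 0.47 as deposited and 0.31 after scaling. In Yg Het against Yg WT livers, 1 of 13 heat shock genes, Hspa4l, fell on both scales.

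A single O (YgWT) library had a summed level of 142 RPKM over 5 skeletal muscle genes, and a single Yg WT library had 210.5 RPKM over 6 pancreatic acinar genes, 1 of which was at 0 in every library. The group medians of these sums were 0.873 RPKM in O (YgWT) and 23.5 RPKM in Yg WT livers.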
